A study of Homo sapiens with 8 samples.

Results

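The MCF10A progression series has 3 steps, from M1 to M2, from M2 to M3 and from M3 to M4. Apart from EMD, the 148 genes described here had a lower mean level at each of them. They were selected on these RNA-seq data: a protein-coding gene was a member when its line mean in CPM (the count of a gene divided by the total count of its library, scaled alike in all libraries) was at least 5 in M1 and when each line's mean was at least 1.3 times that of the next line. Of 10183 protein-coding genes with a mean of 5 CPM or more in M1 (the eligible genes), 148 met the rule, which is 1.45% of them, and 123 genes met its mirror image, a rise by the same ratio at every step. The table holds 56632 genes, of which 29502 had a count. Since the line means chose the members, their differences between lines are given as a description, and the calls of a model on the same contrasts are given once, beside the share over all genes, with nothing read from them.

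M1 is MCF10A, a non-tumorigenic human mammary epithelial line. M2 is MCF10AT1k.cl2, made from MCF10A by transfection with the activated T24-HRAS oncogene and selection in xenografts. M3 (MCF10Ca1h) and M4 (MCF10CA1a.cl1) came from carcinomas that arose in xenografts of M2, so all lines but M1 carry the HRAS transgene, and M4 is not a descendant of M3 as far as the study describes it. All lines were grown for 8 days as three-dimensional acini in Matrigel with 2% horse serum, insulin, hydrocortisone and cholera toxin. EGF at 10 ng/ml was in the medium of M1 and M2, and the M3 and M4 medium had none, so the step from M2 to M3 also compares medium with and without EGF, and each stage is 1 cell line, so stage and line cannot be told apart.

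Mammary epithelium is a bilayered gland lining that takes up and oxidizes fatty acids and amino acids, handles steroid hormones and, in its luminal layer, secretes proteins, while lines such as MCF10A also keep a basal and squamous character. Genes of such specialised functions are often transcribed from promoters poor in CpG dinucleotides, whereas genes used by all cells mostly have CpG-rich promoters. The members are described below by these roles, then by their place in the genome and by their promoter sequence. The roles were assigned from general knowledge after the values were known, and 52 of the 148 genes were left without one.

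The 8 libraries, 2 biological replicates per line, held between 69669970 and 107350344 counts. The basal keratin gene KRT5 lay between 2911 and 9279 CPM in all libraries, while the leukocyte gene PTPRC, the fibroblast gene COL1A2 and the adipocyte gene ADIPOQ were at or near 0, with highest values of 0.0359, 0 and 0 CPM. Other genes of the marker lists were present. The basal gene KRT14 had 18.1 and 8.11 CPM in M1, 89.9 and 91.8 in M3 and 2.43 and 2.81 in M4. The summed basal list lay between 9777 and 11280 CPM in M1 and between 8418 and 10470 in M4. The summed luminal list, mostly KRT8 and KRT18, lay between 1258 and 1315 CPM in M1 and between 2796 and 4655 in M4. The luminal gene GATA3 went the other way, with 76.5 and 96.6 CPM in M1 and 15.5 and 17 in M4. Below 1 CPM in all libraries were 5 of 7 fibroblast markers, but DCN (decorin) had 34.9 and 1.59 CPM in M1 as against 0.177 and 0.0132 in M4, with its highest values, 60 and 59.2, in M2, and the summed fibroblast list lay at 9.19 to 61.7 CPM (M1), 73.4 to 74.5 (M2), 9.13 to 16.2 (M3) and 6.6 to 8.03 (M4). Of 6 immune markers 4 were below 1 CPM throughout. The exceptions, CD14 and CD68, went opposite ways. CD14 had 25.2 and 14 CPM in M1 and 2.14 and 1.09 in M4. CD68 had 9.78 and 3.95 CPM in M1 and 54.3 and 40 in M4. The summed immune list lay between 18.1 and 35.2 CPM in M1 and between 41.2 and 56.5 in M4. Of 5 adipocyte markers 3 were below 1 CPM throughout, and the summed list, mostly LIPE, lay between 10.9 and 21.7 CPM in M1 and between 33.7 and 41.1 in M4. Of 4 endothelial markers all but KDR were below 1 CPM, and the summed list lay between 2.72 and 3.15 CPM in M1 and between 0.25 and 0.428 in M4. The part of such cells or genes in the members' levels was not tested. HRAS, the oncogene of the series, went from 158 and 136 CPM in M1 through 159 and 155 in M2 and 243 and 329.9 in M3 to 354 and 362 in M4. The replicates were not equally close. The mean chi-square of a gene's 2 replicate counts was 6.65 in M2, 111 in M4, 233 in M1 and 293 in M3, over genes with at least 20 counts in the pair; repeated sampling of 1 library would give about 1. Members varied more between replicates than the eligible genes did, in every line. The median absolute log2 ratio was 0.80 against 0.24 in M1 and 0.084 against 0.05 in M2. It was 0.54 against 0.31 in M3 and 0.41 against 0.18 in M4. A table of the study assigns 2 libraries differently from the sample labels, with M1 replicate 2 and M2 replicate 1 exchanged. The labels are used throughout. By Spearman correlation across genes, the libraries labelled M2 stood at 0.9983 with each other. M1 replicate 2 stood at 0.9445 with M1 replicate 1 and at 0.9324 with M2 replicate 2. Which assignment is right was not tested. With the exchanged assignment, 61 genes met the rule, of which 38 were among the 148.

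The median fall was largest at the last step. The median ratio of line means over the members was 1.81 from M1 to M2, 1.82 from M2 to M3 and 2.27 from M3 to M4, where the eligible genes had medians of 0.99, 1.06 and 0.929. The largest of a member's 3 falls lay at the first step in 30 genes, at the middle step in 48 and at the last in 70. A fall to 0 in M4 was counted as the largest, whatever came before. So KRT1 and PLA2G2A stand at the last step, although their means fell 515-fold and 1142-fold from M1 to M2. DAPL1 stands there too, although its mean fell 66.7-fold from M2 to M3. From M1 to M4 the median ratio was 12.3 and the lowest 2.39 (FBXO44, a subunit of ubiquitin ligases). The ratio of M1 to M4 moved by over 1.5 times without 1 of the M1 or M4 libraries in 77 of the 142 members with a count in M4. Over 10-fold lower in M4 were 81 members and over 100-fold lower were 31, which counts 6 genes with no count in either M4 library. The share of all counts that fell on members went from 0.842% and 0.867% in the M1 libraries, through 0.484% and 0.474% in M2 and 0.292% and 0.252% in M3, to 0.157% and 0.154% in M4.

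In 81 members (54.7%) no library of a line reached the level of a library of the line before it, at any of the 3 steps; this held for 235 of the 10183 eligible genes, or 2.31%. Taken step by step, both M1 libraries were above both M2 libraries in 114 members (30.2% of eligible genes), both M2 libraries above both M3 libraries in 136 (37.7%), and both M3 libraries above both M4 libraries in 113 (24.9%). In edgeR's quasi-likelihood test, with p-values adjusted by the Benjamini-Hochberg method across 18431 genes, 147 members passed the filter on low counts, all but EMD. Called lower at an adjusted p under 0.05 were 12 of them in M2 against M1 (1.46% of all genes tested), 19 in M3 against M2 (1.56%), 54 in M4 against M3 (9.72%) and 146 in M4 against M1 (15.8%). The rule used these contrasts, so nothing is read from the shares.

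Membership depended on single libraries. Without any 1 of the 8 libraries, between 127 and 183 genes met the rule, and 29 of the 148 members met it in all 8 cases. Applied to the replicate 1 libraries alone and to the replicate 2 libraries alone, the rule was met in both by 28 genes. The 7 members that met it without each library and also with the exchanged assignment were METTL7A, RAB26, RHOBTB3, SELENOP, SEMA6D, TENT5B and ZBTB16. They were picked out after the values were seen.

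**Figure D1:**
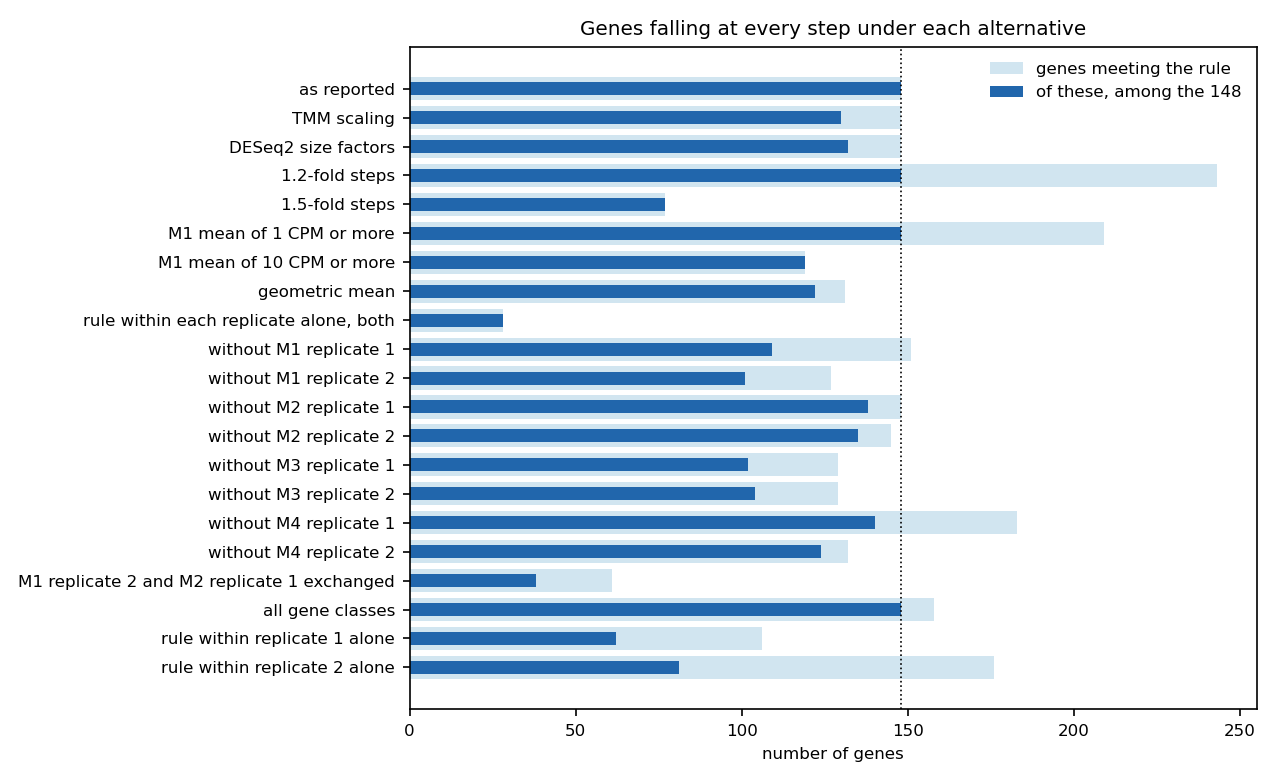
Number of protein-coding genes (all classes where stated) that met the rule under each alternative, light bars, and how many of them were among the 148 members, dark bars. The dotted line marks 148. Exchanging 2 libraries between M1 and M2 left 61 genes, 38 of them members, and requiring the rule in each replicate alone left 28.

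Among secreted gland proteins, 3 members had some of the largest falls. WFDC2, an epithelial protein of the whey acidic protein family, went from 63.1 and 204 CPM in M1 through 46.9 and 49.2 in M2 and 33.1 and 1.98 in M3 to 0.0373 and 0.0263 in M4. Its 2 M4 libraries held 4 and 2 counts, against 5094 and 16991 in M1. AZGP1, a zinc-binding lipid-mobilizing glycoprotein of gland secretions, went from 70.4 and 442 CPM in M1 through 25.2 and 23.8 in M2 and 9.17 and 1.66 in M3 to 0.307 and 0.381 in M4. In both genes every library of a line lay below every library of the line before, although the M1 replicates differed by over 3-fold and the M3 replicates of WFDC2 by more. OLFM4, a secreted glycoprotein of epithelial crypts, was high in M1 replicate 2 alone, going from 3.71 and 66.1 CPM in M1 through 0.519 and 0.474 in M2 and 0.0912 and 0.556 in M3 to 0.186 and 0 in M4.

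Squamous differentiation was represented by 4 members. SERPINB13, a serpin of keratinocytes, went from 27.8 and 4.39 CPM in M1 through 6.32 and 6.36 in M2 and 1.52 and 0.486 in M3 to 0.0931 and 0.0263 in M4, and KLK8, a serine protease of the epidermis, went from 6.03 and 4.56 CPM in M1 through 1.4 and 1.74 in M2 and 1.02 and 0.145 in M3 to 0.0373 and 0 in M4. CASP14, the caspase of cornifying keratinocytes, went from 19.8 and 101 CPM in M1 through 28.9 and 32 in M2 and 3.94 and 0.822 in M3 to 0.764 and 2.69 in M4, and its M3 and M4 libraries overlapped. The fourth, KRT1, a keratin of suprabasal epidermis, is set out further below because its M1 level came from 1 library. Of the 25 eligible genes in the squamous list as a whole, 3 were members (KLK8, KRT1 and SERPINB13), and the median ratio of M1 to M4 over the 25 was 1.93, against 0.93 over all eligible genes.

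Amino acid, amine and carnitine metabolism held 10 members, of which 7 had no overlap at any step. The same held for 54.7% of all 148 members and 2.31% of the eligible genes. The rule used these levels, so nothing is read from the count. ASS1, which joins citrulline and aspartate on the way to arginine, went from 826 and 798 CPM in M1 through 616 and 599 in M2 and 363 and 316 in M3 to 193 and 235 in M4. The drop was even, with each line below the one before, and M4 ended 3.79-fold below M1. The paired E1 subunits of the branched-chain ketoacid dehydrogenase, which commits leucine, isoleucine and valine to oxidation, were both members. BCKDHA went from 129.6 and 159 CPM in M1 through 106 and 104 in M2 and 84.2 and 58.4 in M3 to 37.9 and 27.6 in M4, and BCKDHB went from 30.3 and 20.3 CPM in M1 through 15.1 and 17.4 in M2 and 12.4 and 12.1 in M3 to 8.2 and 7.99 in M4. Their line means in M1 were 4.41 and 3.13 times those in M4, with no overlap at any step. The complex's other parts, picked out after the values were seen, did not meet the rule: DBT, the E2 subunit, went from 38 and 29.3 CPM in M1 through 29.5 and 31.7 in M2 and 21.4 and 21.7 in M3 to 18 and 22 in M4, and DLD, the shared E3 subunit, went from 149.7 and 111 CPM in M1 through 144 and 147 in M2 and 124 and 117 in M3 to 96.4 and 105 in M4. BCKDK, the kinase that switches the complex off, had 45 and 47.5 CPM in M1 as against 64.3 and 53 in M4, higher in both M4 libraries.

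Mitochondrial aldehyde dehydrogenases of amino acid breakdown formed a group of 3. ALDH7A1, of lysine breakdown, went from 214 and 304 CPM in M1 through 179 and 174 in M2 and 117 and 125 in M3 to 44.9 and 42.5 in M4. ALDH4A1, of proline breakdown, went from 85.6 and 89.5 CPM in M1 through 38.3 and 37.1 in M2 and 19 and 10.1 in M3 to 8.63 and 7.22 in M4. ALDH5A1, which clears succinic semialdehyde from GABA, went from 32.2 and 22.8 CPM in M1 through 21.8 and 20.4 in M2 and 7.11 and 13.5 in M3 to 2.68 and 5.4 in M4. All 3 were without overlap at every step. MAOA, the monoamine oxidase, went from 843 and 228 CPM in M1 through 112 and 113 in M2 and 5.13 and 1.2 in M3 to 1.25 and 1.21 in M4: its level dropped most between M2 and M3, and M3 and M4 overlapped. BBOX1, which makes the last step of carnitine synthesis, went from 23.4 and 101 CPM in M1 through 45.1 and 47.7 in M2 and 6.41 and 5.12 in M3 to 1.52 and 0.697 in M4, and the M1 and M2 libraries overlapped. CKB and GGT6 completed the group, with ratios of M1 to M4 of 9.58 and 21.4, which became 15.5 and 32.2 without M4 replicate 1.

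**Figure D2:**
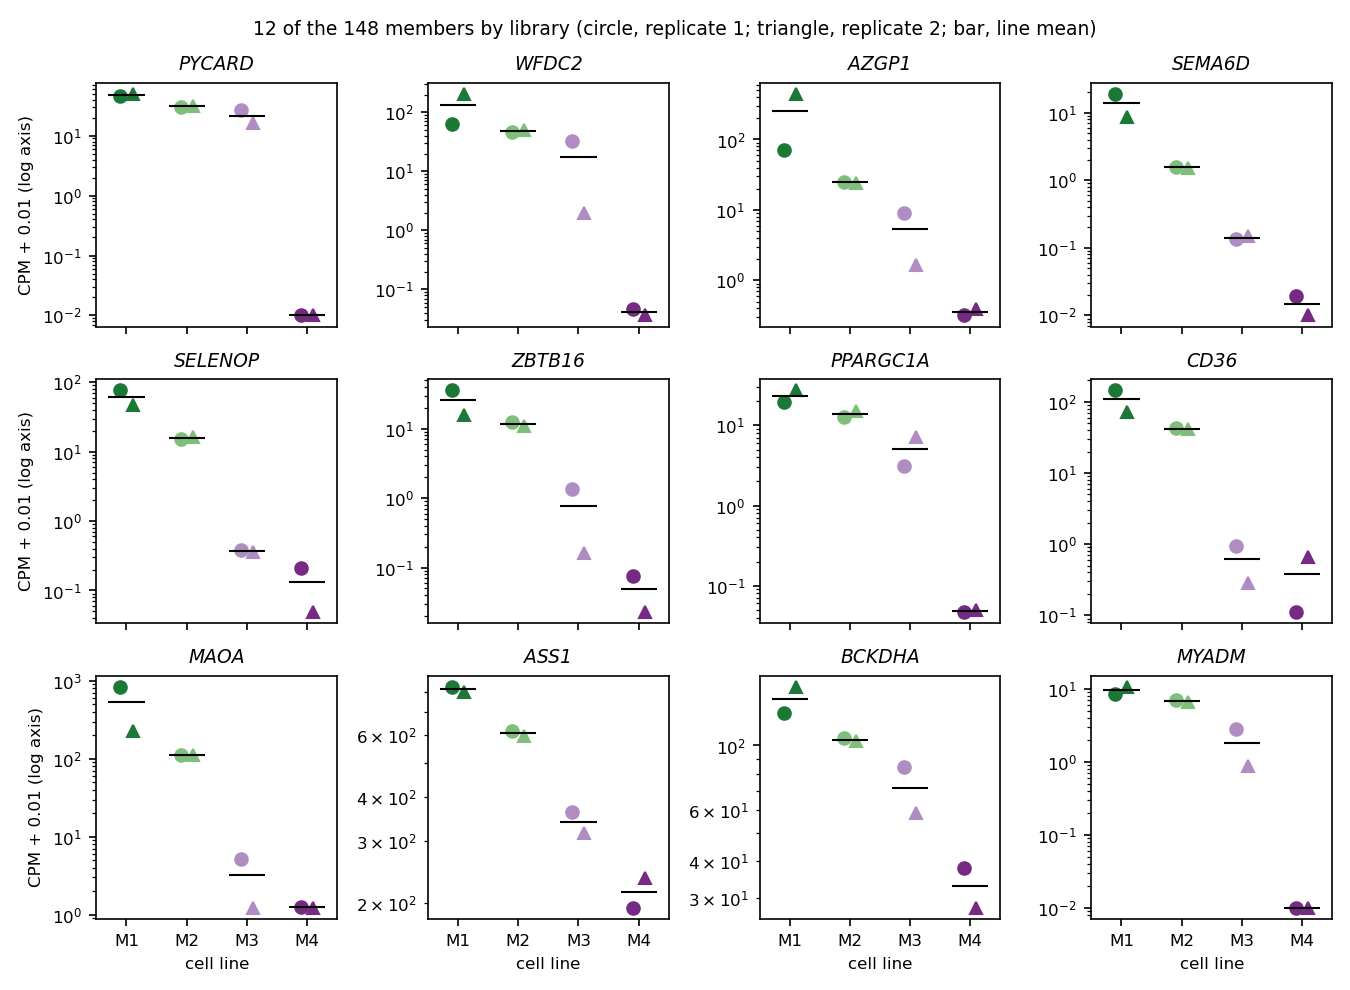
CPM plus 0.01 on a log axis in each of the 8 libraries for 12 members, with circles for replicate 1, triangles for replicate 2 and bars for the line mean. PYCARD and MYADM had 0 counts in both M4 libraries and stand at the added 0.01. CD36 and MAOA dropped most between M2 and M3, and their M3 and M4 libraries overlapped.

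Fatty acid and lipid handling held 12 members. CD36, the fatty acid translocase, went from 144 and 71.2 CPM in M1 through 42.6 and 41.5 in M2 and 0.946 and 0.278 in M3 to 0.102 and 0.644 in M4. PPARGC1A (PGC-1 alpha), the coactivator of mitochondrial biogenesis and fatty acid oxidation, went from 19.6 and 27.4 CPM in M1 through 12.8 and 15.2 in M2 and 3.09 and 7.13 in M3 to 0.0373 and 0.0394 in M4, and its M4 libraries held 4 and 3 counts against 271 and 616 in M3. FABP5, an epidermal fatty acid-binding protein, went from 272 and 189 CPM in M1 through 162 and 156 in M2 and 119.8 and 113 in M3 to 73.4 and 76 in M4. The processed pseudogene FABP5P7 met the same ratios, and the counting could have split reads between the gene and its copies, so the level of FABP5 is uncertain to that extent. PDK2, a kinase that holds back pyruvate dehydrogenase, went from 28.1 and 23.1 CPM in M1 through 11.6 and 12.3 in M2 and 8.05 and 8.2 in M3 to 2.15 and 1.52 in M4, and CROT, which makes medium-chain acylcarnitines in peroxisomes, went from 46.9 and 41.2 CPM in M1 through 26.8 and 25.9 in M2 and 11.4 and 8.06 in M3 to 8.22 and 6.14 in M4. In the list of lipid uptake and storage genes 4 of 15 eligible genes were members (ACSL5, CD36, FABP5 and PPARGC1A), with a median ratio of M1 to M4 of 1.29 over the 15. Of 30 eligible genes of cholesterol and fatty acid synthesis 0 were members, where 1.45% of all eligible genes were, and their median ratio was 0.212, that is, higher in M4.

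Of the 8 members acting on steroids, retinoids, thyroid hormone or foreign compounds, 7 were over 10-fold lower in M4 than in M1, beside 81 of all 148 members. The ratio of TG, 1 of the 7, was 27.8 and became 2.81 without M1 replicate 1. SULT1E1, the estrogen sulfotransferase, went from 104 and 31.3 CPM in M1 through 31.9 and 33.7 in M2 and 14.6 and 3.83 in M3 to 0.0838 and 0.0526 in M4: M1 replicate 2 lay just below the M2 libraries, and the later lines lay apart. CYP4Z1, a mammary cytochrome P450, went from 17 and 46.2 CPM in M1 through 1.45 and 1.22 in M2 and 0.0342 and 0.232 in M3 to 0.0652 and 0.0394 in M4, and the neighbouring CYP4B1 went from 20.6 and 5.29 CPM in M1 through 1.67 and 2.24 in M2 and 1.79 and 0.174 in M3 to 0.401 and 0.21 in M4. CRABP2, which carries retinoic acid to its receptor, went from 31.5 and 59.5 CPM in M1 through 16.6 and 15.8 in M2 and 6.66 and 2.05 in M3 to 1.54 and 0.565 in M4, with no overlap at any step. CYP1B1, an estrogen- and xenobiotic-oxidizing P450, went from 86.8 and 27.5 CPM in M1 through 26.3 and 27.2 in M2 and 1.94 and 16 in M3 to 5.49 and 7.86 in M4: the M3 replicates differed by over 3-fold and lay on both sides of M4. In the xenobiotic and retinoid list 3 of 25 eligible genes were members (CRABP2, CYP1B1 and CYP4B1), with a median ratio of 1.14 over the 25.

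Among the members were 2 proteins that carry or bind selenium. SELENOP, the secreted selenium carrier, went from 76.6 and 47.5 CPM in M1 through 15.4 and 16.2 in M2 and 0.376 and 0.347 in M3 to 0.203 and 0.0394 in M4, and SELENBP1, a selenium-binding methanethiol oxidase, went from 41.5 and 35.3 CPM in M1 through 13.7 and 12.5 in M2 and 2.28 and 2.72 in M3 to 0.708 and 0.342 in M4. In neither did any line overlap the one before, and both remained members without any 1 library. SELENOW, another selenoprotein, picked out after the values were seen, was not a member: it went from 249.1 and 264 CPM in M1 through 246 and 239 in M2 and 344 and 222 in M3 to 85.4 and 115 in M4, with a higher mean in M3 than in M2.

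Innate immunity and inflammation held 8 members. PYCARD, the adaptor ASC that links inflammasome sensors to caspase-1, went from 45.5 and 49.5 CPM in M1 through 30.4 and 31.3 in M2 and 26.7 and 16 in M3 to 0 in both M4 libraries. With a floor of 3 counts per library in M4, its mean in M1 was at least 1410-fold higher. IL1R1, the interleukin-1 receptor, went from 71.6 and 85 CPM in M1 through 55.3 and 56.3 in M2 and 7.1 and 7.34 in M3 to 2.01 and 3.69 in M4, with no overlap at any step. GBP2, an interferon-inducible GTPase, went from 31.8 and 108 CPM in M1 through 19.8 and 18.6 in M2 and 6.41 and 4.5 in M3 to 3.66 and 2.92 in M4. IFITM3, an interferon-induced membrane protein with close copies in the genome, went from 138 and 389 CPM in M1 through 203 and 196 in M2 and 131 and 131 in M3 to 115 and 44.6 in M4, and its M1 and M2 libraries overlapped. Of the 12 eligible genes of the inflammasome and interleukin-1 list, 2 were members (IL1R1 and PYCARD), and the median ratio over the list was 0.881. Of 15 eligible interferon-stimulated genes, IFITM3 alone was a member, and the median ratio was 0.476. CSF1, the macrophage growth factor and the only member of the chemokine and cytokine list, had 10.3 and 26.7 CPM in M1 as against 5.59 and 4.85 in M4.

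Transcription factors and cofactors made up 17 members. ZBTB16 (PLZF), a zinc finger repressor that glucocorticoids induce, went from 35.6 and 15.6 CPM in M1 through 12.4 and 10.9 in M2 and 1.36 and 0.15 in M3 to 0.0652 and 0.0132 in M4. KLF9, a Krüppel-like factor that responds to glucocorticoid and thyroid hormone, went from 44.7 and 25.1 CPM in M1 through 20.5 and 20 in M2 and 14.1 and 9.19 in M3 to 6.31 and 7.94 in M4. CEBPD, the delta member of the C/EBP family, went from 74.3 and 63.1 CPM in M1 through 50.9 and 52.2 in M2 and 41.4 and 26.9 in M3 to 16.3 and 17.2 in M4, and DBP, a PAR bZIP factor driven by the circadian clock, went from 9.39 and 18.4 CPM in M1 through 9.02 and 8.37 in M2 and 5.37 and 4.82 in M3 to 0.523 and 0.607 in M4. These 4 genes had no overlap at any step. FOXI1, a forkhead factor of ionocytes, went from 29.4 and 11.1 CPM in M1 through 9.53 and 9.62 in M2 and 1.17 and 11.6 in M3 to 0.205 and 0.158 in M4, where M3 replicate 2 was at the level of the M2 libraries. ZEB2, an EMT repressor and the only member of the EMT list, was high in M1 replicate 1 alone, going from 15.6 and 1.82 CPM in M1 through 5.19 and 4.41 in M2 and 3.92 and 0.579 in M3 to 0.522 and 0.434 in M4.

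Cell surface receptors, guidance molecules and their ligands held 11 members. SEMA6D, a transmembrane semaphorin, went from 18.8 and 8.55 CPM in M1 through 1.56 and 1.52 in M2 and 0.125 and 0.139 in M3 to 0.00932 and 0 in M4, with 1 and 0 counts in M4 against 1519 and 714 in M1, and no overlap at any step. PRLR, the prolactin receptor of mammary epithelium, went from 6.41 and 23 CPM in M1 through 5.69 and 5.15 in M2 and 1.77 and 4.64 in M3 to 1.09 and 0.565 in M4. EPHB6, an ephrin receptor without kinase activity, went from 14.6 and 22.7 CPM in M1 through 12.4 and 12.3 in M2 and 1.33 and 2.62 in M3 to 0.941 and 1.18 in M4, and EPHA4, another ephrin receptor, went from 10.6 and 26.2 CPM in M1 through 8.74 and 8.67 in M2 and 4.52 and 8.61 in M3 to 4.59 and 3.48 in M4. GAS6, the ligand of the TAM receptors, went from 87.8 and 102 CPM in M1 through 72.5 and 73.2 in M2 and 73.4 and 35.3 in M3 to 26.1 and 34.1 in M4. GPER1, a G protein-coupled receptor that binds estrogen, went from 10.2 and 8.78 CPM in M1 through 5.82 and 5.12 in M2 and 2.03 and 3.8 in M3 to 1.83 and 1.51 in M4.

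Adhesion, junction and matrix genes held 11 members. CLDN8, a claudin of tight junctions, went from 9.1 and 12.1 CPM in M1 through 2.08 and 2.54 in M2 and 0.103 and 0.359 in M3 to 0.0745 and 0.0657 in M4. MME (CD10), a surface peptidase of myoepithelial cells, went from 82.5 and 93.5 CPM in M1 through 8.35 and 8.83 in M2 and 6.11 and 1.84 in M3 to 2.2 and 0.618 in M4: over 80 CPM in both M1 libraries and below 9 in all others. TNS1, a tensin of focal adhesions, went from 11.9 and 39.9 CPM in M1 through 3.32 and 3.74 in M2 and 1.05 and 0.606 in M3 to 0.431 and 0.316 in M4. NINJ1, a membrane protein of cell rupture, went from 164 and 339 CPM in M1 through 150.3 and 142 in M2 and 119.8 and 104 in M3 to 66.7 and 77.9 in M4. No members were found among 21 eligible genes in the desmosome and junction list, 22 in the hemidesmosome and basement membrane list and 7 basal markers, lists too short to tell 0 from the 1.45% over all eligible genes.

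The remaining roles were small. SCNN1B, a subunit of the epithelial sodium channel, went from 84.3 and 15 CPM in M1 through 24.8 and 26.2 in M2 and 21.1 and 6.92 in M3 to 2.62 and 1.18 in M4, and its M1 replicate 2 lay below the M2 libraries. Of the kinases, MAPK4, an atypical MAP kinase, went from 17.2 and 33.5 CPM in M1 through 12.6 and 12.8 in M2 and 1.29 and 1.54 in M3 to 0.633 and 0.342 in M4, and PIK3R3, a regulatory subunit of PI3-kinase, went from 119.8 and 118 CPM in M1 through 91.5 and 91.3 in M2 and 41.6 and 59.1 in M3 to 26.4 and 29.9 in M4. Among genes without a role, SNCAIP (synphilin-1) went from 18.4 and 22.6 CPM in M1 through 2.37 and 2.15 in M2 and 0.057 and 0.174 in M3 to 0.0373 and 0.0132 in M4, TENT5B, a poly(A) polymerase, went from 125 and 33.1 CPM in M1 through 25.7 and 23.7 in M2 and 0.501 and 0.926 in M3 to 0.428 and 0.342 in M4, and METTL7A, a thiol methyltransferase of lipid droplets, went from 143 and 83.3 CPM in M1 through 59.4 and 62.2 in M2 and 10.3 and 8.75 in M3 to 2.18 and 2.39 in M4. In these 3 genes the levels dropped by more from M2 to M3 than from M3 to M4. RPL28, a ribosomal protein gene with the highest M1 mean CPM of the members (not corrected for length), went from 1546 and 1621 CPM in M1 through 1180 and 1121 in M2 and 886 and 676 in M3 to 536 and 548 in M4. Ribosomal protein genes have many pseudogenes, and its counts are uncertain to that extent. FHIT, a diadenosine triphosphate hydrolase at a fragile site, went from 8.05 and 9.41 CPM in M1 through 6.09 and 6.67 in M2 and 4.92 and 2.79 in M3 to 2.51 and 2.04 in M4; with GAS6 and KLF9 it was 1 of 3 members among 38 eligible genes of the list of cell cycle inhibitors and tumor suppressors. NRARP, a Notch-regulated ankyrin protein and the only member of the Notch list, went from 5.81 and 20.7 CPM in M1 through 9.7 and 10.5 in M2 and 2.44 and 7.24 in M3 to 1.29 and 2.5 in M4.

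**Figure D3:**
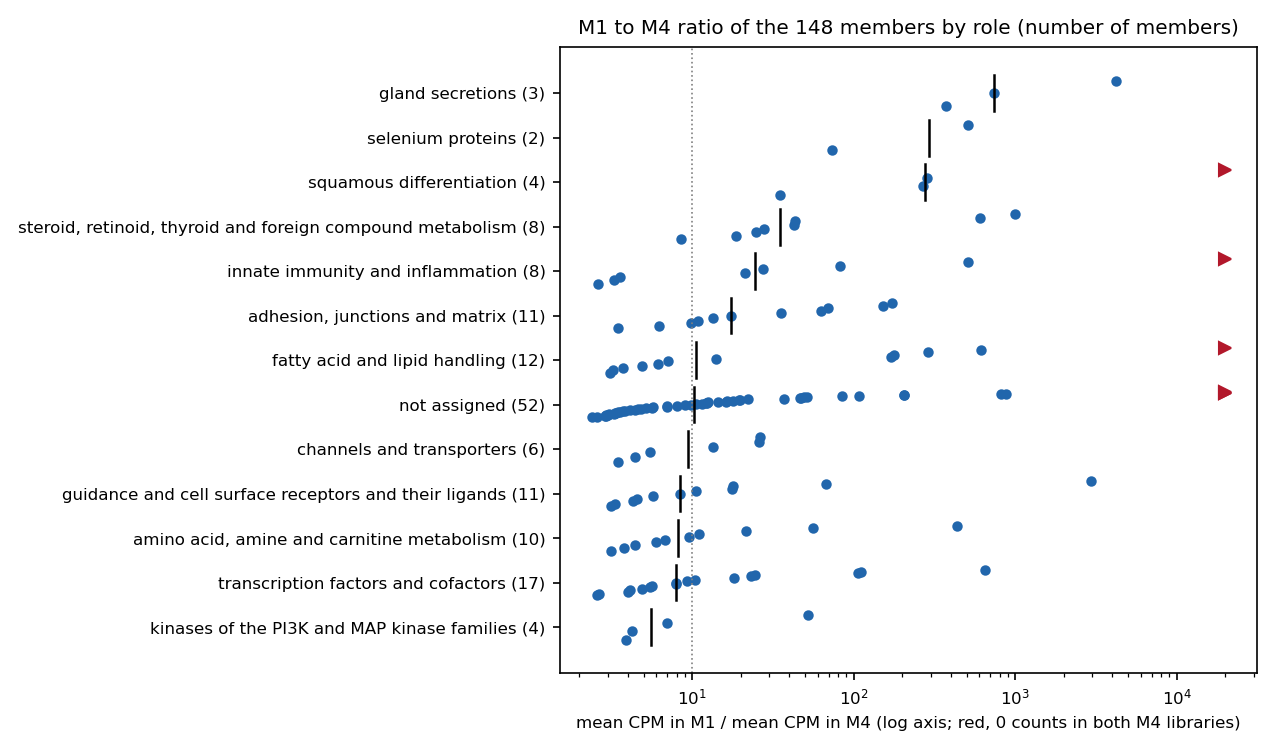
Ratio of mean CPM in M1 to mean CPM in M4 for each of the 148 members on a log axis, by role, with the median of each role as a bar and the number of members in brackets. Red arrows at the right edge are the 6 genes without a count in M4 (KRT1, PYCARD, PLA2G2A and, on top of each other among the unassigned, DAPL1, EMD and MYADM), and SEMA6D rests on 1 count in M4. Kinases, transcription factors, amino acid genes, surface receptors with their ligands, and channels and transporters had medians below 10, the dotted line, and the gland, selenium and squamous genes had medians of 744, 293 and 277.

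Of 36 gene lists, 11 held a member and 25 held none, with 21 different members in all. The lists were chosen with earlier results of these data known, so their shares of members are a description only. No member was in the lists of cell cycle and proliferation genes (31 eligible) or p53 targets (27 eligible), and lists of these sizes cannot tell 0 from the 1.45% over all eligible genes.

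In 10 members the M1 level came almost wholly from 1 library, with a ratio of the replicates above 10. KRT1 went from 72.5 and 0.371 CPM in M1 through 0.127 and 0.0143 in M2 and 0 and 0.0116 in M3 to 0 in both M4 libraries, and PLA2G2A, a secreted phospholipase A2, went from 32.5 and 0.323 CPM in M1 through 0 and 0.0287 in M2 and 0.0114 and 0 in M3 to 0 in both M4 libraries. EMD, which encodes emerin of the inner nuclear membrane, had 25.8 and 0 CPM in M1 as against 0 and 0 in M4. It was listed at 0 in 7 of the 8 libraries. Its mean was 0 in M2, M3 and M4, so it did not fall after M2 and met the rule there as 0 against 0. Emerin is made in nearly all cells, and the value of this gene describes 1 library only. CMKLR2, a chemerin receptor, ATOH8, a basic helix-loop-helix factor, and TG (thyroglobulin) were likewise high in M1 replicate 1. CMKLR2 went from 56.8 and 1.99 CPM in M1 through 2.4 and 2.14 in M2 and 1.72 and 0.174 in M3 to 0.102 and 0.0132 in M4. High in M1 replicate 2 were GGTA1 going from 0.916 and 22 CPM in M1 through 0.323 and 0.416 in M2 and 0.262 and 0.0232 in M3 to 0 and 0.0263 in M4, ELN (elastin), ADAMTS9 and OLFM4. These genes are members by a line mean that a single culture carries. Over all members M1 replicate 1 was over 3-fold above replicate 2 in 21 genes and over 3-fold below it in 20.

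MYADM and DAPL1 had no count in M4 and were high in both M1 libraries. MYADM, a membrane protein of lipid rafts, went from 682 and 903 counts in M1 through 729 and 465 in M2 and 245 and 75 in M3 to 0 in both M4 libraries, and its M1 mean was at least 286-fold higher than the floor of 3 counts per library in M4. DAPL1, a death-associated protein-like gene of epithelia and eye, went from 1080 and 3084 counts in M1 through 281 and 179 in M2 and 7 and 0 in M3 to 0 in both M4 libraries, at least 746-fold higher.

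At the edges of the rule, MTSS2 (from 68.2 and 92.5 CPM in M1 through 61.9 and 61.5 in M2 and 40.3 and 54.4 in M3 to 22.4 and 30.9 in M4), PIK3R3 and ALDH5A1 were just inside, with smallest steps of 1.302, 1.303 and 1.305. Just outside were ZNF211, ARHGEF19, FAM234A, DSEL and PTOV1, whose smallest steps were between 1.29 and 1.299. PDCD4, the translation inhibitor that the study followed, was outside as well: it went from 306 and 172 CPM in M1 through 155 and 161 in M2 and 70.6 and 57.1 in M3 to 53.9 and 60.3 in M4, and its step from M3 to M4 was 1.12. Its antisense transcript PDCD4-AS1 went from 2.23 and 1.5 CPM in M1 through 0.724 and 0.861 in M2 and 0.376 and 0.174 in M3 to 0.14 and 0.132 in M4, with every step above 2, but its M1 mean of 1.86 CPM was below the floor, and it is not protein coding.

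Every chromosome from 1 to 22 and X held a member, and chromosome 19 held the largest share. On chromosome 19, 19 of 672 eligible genes were members (2.83%, against 1.45% over all chromosomes). Split at 26 Mb (GRCh37), within the centromeric region, 16 of 357 eligible genes of the long arm were members (4.48%) and 3 of 315 of the short arm (0.952%). The arms were compared after the counts by chromosome were seen, and other chromosomes were not split by arm. The 16 genes were APOC1, BCAM, BCKDHA, CA11, CADM4, CCDC106, DBP, KLK8, MYADM, NKPD1, NTF4, RPL28, U2AF1L4, ZNF225, ZNF428 and ZNF580. Chromosome 1 held 21 members of 1047 (2.01%) and chromosome 5 held 11 of 481 (2.29%), while chromosome 10 held 2 of 386 (0.518%) and chromosome 22 held 1 of 238 (0.42%). Against all protein-coding genes with a count, 1.51% of those on chromosome 19 were members, and 0.878% over all chromosomes.

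The other genes of 19q, those that were not members, were also lower in M4. Their median log2 ratio of M1 to M4 was 0.55, against -0.11 over all eligible genes that were not members and -0.10 on the short arm. By step, the median log2 ratio of the other 19q genes was 0.01 from M1 to M2, 0.24 from M2 to M3 and 0.27 from M3 to M4, where all other eligible genes had -0.02, 0.08 and -0.12. Each M1 library against each M4 library gave a 19q median between 0.47 and 0.62, and medians over all other eligible genes between -0.17 and -0.07. Gene copy number was not measured here, and its part was not tested.

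**Figure D4:**
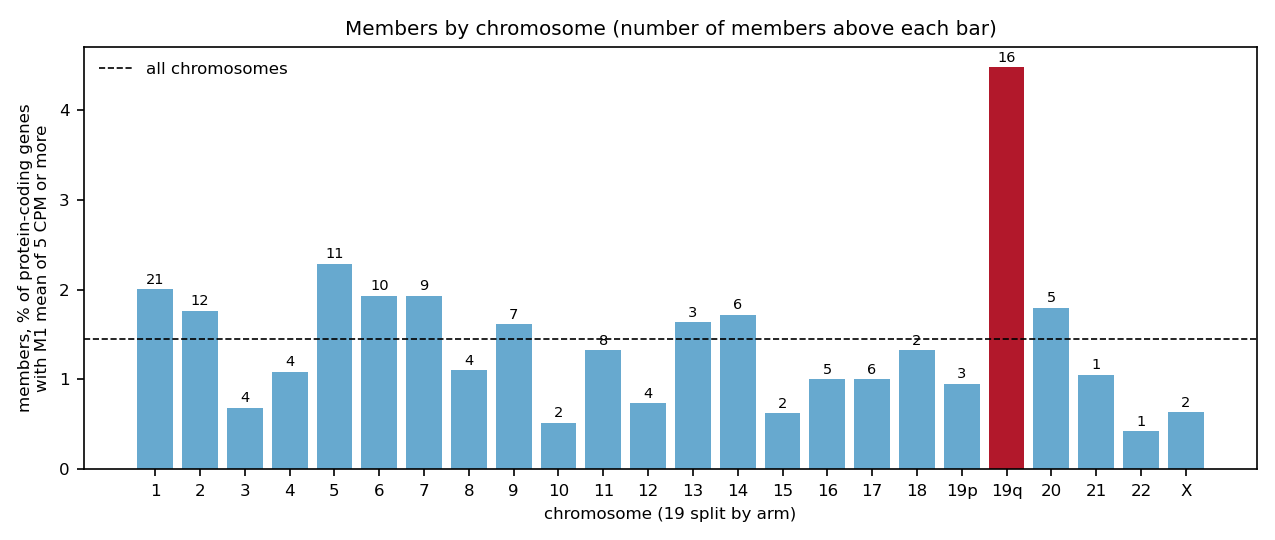
Members as a percentage of eligible protein-coding genes on each chromosome, with chromosome 19 split by arm and the number of members above each bar. The dashed line is the share over all chromosomes, 1.45%. The long arm of chromosome 19 stood at 4.48% with 16 members.

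Members were close neighbours in a few places. Another member's start site lay within 1 Mb for 36 members (24.3%), in 29 pairs, and 18.4% of the other eligible genes had a member that near. Many of the 29 pairs lay on 19q, where 4.48% of eligible genes were members, and the share without 19q was not computed. The 3 closest pairs were all on 19q: ZNF580 (chr19:56146382-56154836, GRCh37) and CCDC106 (chr19:56152428-56164527) with start sites 6.05 kb apart, DBP (chr19:49133287-49140636) and CA11 (chr19:49141203-49149444) 8.81 kb apart, and ZNF428 and CADM4 20.2 kb apart. DBP and CA11 had similar courses: CA11, a carbonic anhydrase-related protein, went from 15.8 and 30.1 CPM in M1 through 8.67 and 9.57 in M2 and 6.84 and 4.77 in M3 to 0.764 and 0.132 in M4. On chromosome 20 DBNDD2 and WFDC2 lay 63.7 kb apart, and on chromosome 1 CYP4B1 and CYP4Z1 lay 309 kb apart. For 89 members the nearest eligible gene that was not a member lay within 100 kb. SPHK2, PIGT and ZNF581 each count for more than 1 member here. Over the 89 pairs the neighbour's median log2 ratio of M1 to M4 was 0.09, and in 38.2% it was lower in M4 by 1.3-fold or more. Of all eligible genes that were not members, each counted once, 24.2% were. The pairs take in 19q, where the other genes were also lower in M4.

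An lncRNA on the opposite strand overlapped 54 members. Only 13 such lncRNAs, over 12 members, had at least 10 counts in both M1 libraries: FOXN3-AS1, MGC32805, ENSG00000250615, ZBED3-AS1, CYP1B1-AS1, FAM13A-AS1, C1RL-AS1, JDP2-AS1, LNMICC, CYP4A22-AS1, ENSG00000258504, ENSG00000268287 and ZNF225-AS1. The line means of 5 of the 13 were lower at every step, and those of ZBED3-AS1 and ENSG00000268287 (over NTF4) by at least 1.3 each time. MGC32805, opposite SNCAIP, held 87 and 25 counts in M1, and at most 10 in any library of the later lines. C1RL-AS1 went the other way from C1RL at the last step, with 370 and 277 counts in M3 and 1035 and 410 in M4. Whether the counting used strand is not given in the sources used here, so reads of a member and of an lncRNA opposite to it cannot be told apart.

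Promoters of the members were poorer in CpG than those of other genes. RefSeq promoter windows (GRCh38.p14, from 250 bases before to 50 bases after the first start site listed) were found for 120 of the 148 members and 8452 of the 10183 eligible genes. The median ratio of observed to expected CpG was 0.673 in the members and 0.857 over the eligible genes. Below a ratio of 0.6 were 49 member promoters (40.8%) and 13.7% of eligible ones. With the highest ratio over all start sites of a gene in place of the first, the shares were 34.2% and 8.25%. The low ratios went with large falls in general. Among members over 10-fold lower in M4, 50.8% of 65 promoters were below 0.6, and among the other members 29.1% of 55. Eligible genes that were not members but were also over 10-fold lower in M4 had a share of 61.0% of 77, and the remaining genes 12.9%.

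**Figure D5:**
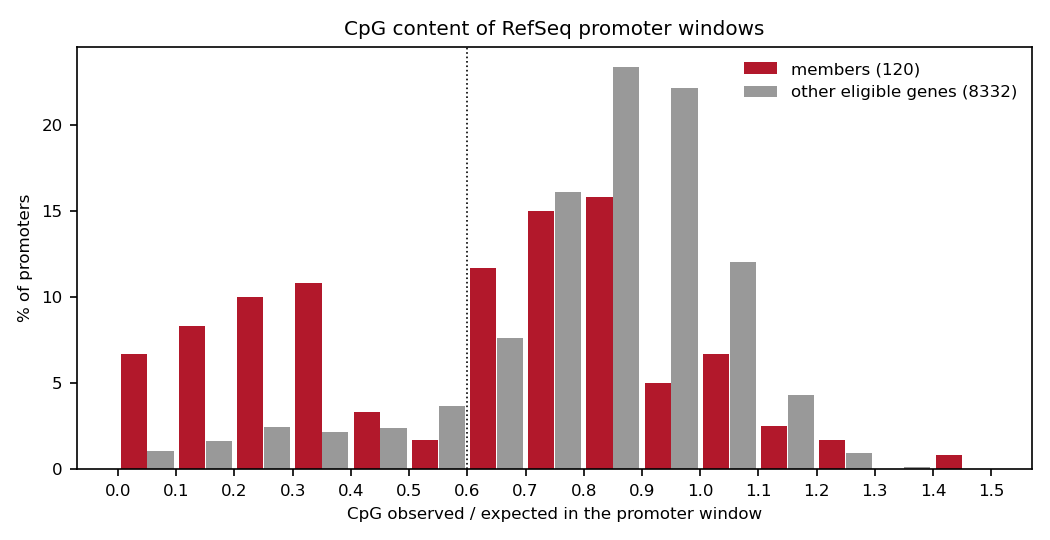
Distribution of the observed to expected CpG ratio in promoter windows of 120 members, red, and 8332 other eligible genes, grey, as a percentage of each set. The dotted line marks 0.6, below which lay 40.8% of the members, while the other genes formed a single peak between 0.7 and 1.1.

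The ratio varied widely among the genes with the deepest falls. MYADM and PYCARD, without a count in M4, had windows with ratios of 0.798 and 0.6003, the second at the threshold of 0.6 and below the lower quartile of the eligible genes, 0.728. AZGP1 and SULT1E1 had windows with ratios of 0.0501 and 0.0850. Their M1 means were 744 and 995 times their M4 means, 204 times for AZGP1 without M1 replicate 2 and 458.5 times for SULT1E1 without M1 replicate 1, with 1283 and 1531 times without the other M1 library. The 250 bases before the start site of these 4 genes are shown 5′ to 3′ on the transcribed strand with each CpG in capitals (GRCh38.p14). They hold 16 CpG in PYCARD, 23 in MYADM, 1 in AZGP1 and 1 in SULT1E1.
PYCARD, chr16:31202761-31203010, minus strand: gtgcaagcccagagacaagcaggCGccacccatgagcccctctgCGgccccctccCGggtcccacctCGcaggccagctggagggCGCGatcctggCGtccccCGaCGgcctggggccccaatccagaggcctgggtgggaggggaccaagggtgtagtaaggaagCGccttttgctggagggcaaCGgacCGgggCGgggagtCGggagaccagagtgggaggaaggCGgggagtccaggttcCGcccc
MYADM, chr19:53866121-53866370, plus strand: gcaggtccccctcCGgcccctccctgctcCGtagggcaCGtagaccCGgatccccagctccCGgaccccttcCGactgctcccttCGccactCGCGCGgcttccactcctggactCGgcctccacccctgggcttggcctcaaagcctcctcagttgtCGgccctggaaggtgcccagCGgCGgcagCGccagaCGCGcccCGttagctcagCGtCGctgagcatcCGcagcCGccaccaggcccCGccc
AZGP1, chr7:99976032-99976281, minus strand: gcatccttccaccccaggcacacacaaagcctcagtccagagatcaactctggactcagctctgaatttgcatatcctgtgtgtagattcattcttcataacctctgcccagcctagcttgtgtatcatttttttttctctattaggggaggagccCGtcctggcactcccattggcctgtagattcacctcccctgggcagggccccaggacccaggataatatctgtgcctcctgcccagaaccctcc
SULT1E1, chr4:69860146-69860395, minus strand: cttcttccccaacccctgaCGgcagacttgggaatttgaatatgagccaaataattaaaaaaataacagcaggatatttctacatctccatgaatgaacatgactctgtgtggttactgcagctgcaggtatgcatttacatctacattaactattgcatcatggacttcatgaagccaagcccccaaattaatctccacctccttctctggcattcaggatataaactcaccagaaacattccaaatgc

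Short motifs were searched on both strands of the windows. TATAAA, the core of the TATA box that sets the start site of many tissue-restricted genes, was in 13 member promoters (10.8%) and in 5.09% of eligible ones. The member share carries a 95% margin of 5.56 percentage points, which reaches almost to the eligible share. On the transcribed strand, TATAAA with its first base 40 to 20 bases before the start site was in 5 members (4.17%) and in 1.46% of eligible genes. That member share rests on 5 genes, and no margin was computed for it. These 5 are shown with the motif in capitals, because the match lies at the distance from the start at which TATA boxes are found.
SULT1E1, chr4:69860157-69860186, minus strand: tggcattcaggaTATAAActcaccagaaac
SELENOP, chr5:42811906-42811935, minus strand: aaacaacaggacTATAAAtatcagagtgtg
CYP4B1, chr1:46799005-46799034, plus strand: atgggtccagagTATAAAggaacccaggag
DAPL1, chr2:158795276-158795305, plus strand: gccccctgccttTATAAAgccggtgcggtg
CLCA4, chr1:86547037-86547066, plus strand: tttaggaacgtaTATAAAgagaaagaaaag

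TGANTCA, which takes in the AP-1 site bound by JUN and FOS dimers at the end of the RAS and ERK pathway, was in 9 member promoters (7.50%) and in 4.24% of eligible ones. Its middle letter was left free, and TGACTCA, which read on both strands is the AP-1 consensus, was in 6 members (5.0%) and in 2.92% of eligible genes; it was searched after the first result was seen. The member shares of TGANTCA and TGACTCA carry 95% margins of 4.71 and 3.9 percentage points, which take in the eligible shares. A part of RAS or EGF signalling was not tested. The matches to TGACTCA in 4 of the 6 members are shown in capitals, and those in C1RL and DIO2 are not shown.
OLFM4, chr13:53028665-53028694, plus strand: ggtgtgggccaTGACTCAgattcctgggtg
CASP14, chr19:15049279-15049308, plus strand: gcacagacatcTGACTCAtttagactctct
SERPINB13, chr18:63587245-63587274, plus strand: tcgagagatgcTGACTCAgttggtctgggg
TENT5B, chr1:27012965-27012994, minus strand: ctagagaacagTGACTCAcgtgcaaagctc

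GGGCGG, the SP1 site of CpG-rich promoters, was in 55.0% of the members and 72.2% of eligible genes. CACGTG, the E-box of MYC and clock factors, was in 7.50% and 10.8%, and TGACGTCA, the CRE bound by CREB, was in 1 member (MCAM, 0.833%) and in 3.502% of eligible genes. CCAAT was in 34.2% and 37.2%, GGAATG, bound by TEAD factors, in 12.5% and 10.2%, TTCNNNGAA, bound by STAT factors, in 6.67% and 6.12%, and the core of the interferon-stimulated response element in 3.33% and 2.62%. A match is a description of the letters and was not tested as a binding site.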

How the data were processed

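Acinar cultures of M1 to M4 were profiled by poly A+ RNA-seq in 2 replicates each. The authors trimmed reads with Trimmomatic, aligned them with STAR to hg19 (GRCh37) and estimated counts per gene with RSEM on GENCODE v19; the submitters' notes also name Picard. Tool versions are not given in the sources used here. The deposited values are the authors' expected counts, not normalized. Of these, 12.8% are not whole numbers. Library totals ran from 69669970 to 107350344, at which a gene with few counts carries a large counting error.

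CPM was computed from column sums, and the rule was applied to line means. Gene classes, positions and symbols came from GENCODE release 44 on GRCh37. Expected counts were rounded for edgeR 4.0.16 (R 4.3.3, limma 3.58.1): TMM scaling, filterByExpr, 1 coefficient per line over 8 libraries, robust quasi-likelihood fit, contrasts between lines. DESeq2 1.42.0, Python 3.11.15, pandas 2.3.3 and numpy 2.4.6 were also used. Windows were matched to RefSeq by Ensembl ID, symbol or an unambiguous synonym. Fit and rule were tested on simulated data. The counts simulated for the rule held counting error only, without the spread between replicates seen here, so that test does not cover this spread. Replicates were called biological by the study, and p-values measure the spread between these samples.

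The members and gene lists were chosen with earlier results of these data known. Named genes were the 15 members with the largest ratio of M1 to M4 (those at 0 in M4 first), the 10 with the highest M1 mean, those nearest the edges of the rule, those in a gene list, antisense lncRNAs with 10 or more counts in both M1 libraries, the study's genes and the 5 members with the largest ratio and no overlap at all steps; other genes were named after their values were seen. The alternatives were other scalings, ratios and floors, a geometric mean, a replicate block, single libraries left out, an exchanged library assignment and other fits. Protein sequences were not used here.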

Additional observations from a re-analysis of the deposited data

How the results depend on the processing

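The number of genes that met the rule was 243 with steps of 1.2, 77 with steps of 1.5 and 61 with M1 replicate 2 and M2 replicate 1 exchanged. It was 28 where the rule had to hold within each replicate alone, which is how the replicate block was applied to the rule. It was 127 to 183 without single libraries, and 148 with TMM scaling or DESeq2's size factors, which kept 130 and 132 of the members. Both scalings moved the median gene by less than 0.1 on the log2 scale in each line. Replicate 1 alone gave 106 genes and replicate 2 alone 176, both chosen after seeing the data.

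Members called lower in M2 against M1 numbered 43 with DESeq2, 82 without the filter on low counts, 19 with only these lines fitted and 0 with the exchanged assignment (8 at an unadjusted edgeR p under 0.05). Leaving out single libraries gave 0 to 24, with 0 without either M2 replicate (25 and 26 at an unadjusted p under 0.05) and 24 without M1 replicate 2. In M3 against M2 the counts were 43 with DESeq2, 61 without the filter and 9 exchanged, and 4 to 24 without single libraries, with 4 without either M2 replicate. In M4 against M3 they were 108 without the filter and 23 exchanged, and 22 to 59 without single libraries, with 22 and 23 without M4 replicate 1 and 2. In M4 against M1 the range without single libraries was 115 to 139. These counts come from contrasts that the rule used. A replicate block in the fit gave 12, 23, 57 and 141 calls in the 4 contrasts in order, and the fit without it 12, 19, 54 and 146. The replicate differences of same-numbered samples correlated at 0.28 between M3 and M4 and between -0.09 and 0.04 in the other 5 pairs of lines; since not every pair deviated together, the numbers were not taken to pair the samples. For 34 named members, 203 alternative values of the ratio of M1 to M4 included 0 of the opposite sign and 3 that moved by more than the replicate spread. With 2 replicates per line, leaving out 1 library can seldom move a value beyond that spread. The rule had also chosen genes with M1 above M4, so nothing is read from these counts. Over all members, 77 of 142 ratios moved by over 1.5 times without 1 library.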

Other observations

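The same ratios and the same floor were met by 9 genes of other classes than protein coding, and by ENSG00000077809, 1 of 146 genes with an M1 mean of 5 CPM or more whose class the annotation used here does not give. MIR200CHG, the host transcript of the miR-200c and miR-141 microRNAs of epithelial cells, went from 6.17 and 11.6 CPM in M1 through 3.63 and 3.04 in M2 and 3.74 and 1.28 in M3 to 1.57 and 0.789 in M4. LINC01806 went from 4.47 and 7.29 CPM in M1 through 4.56 and 3.92 in M2 and 2.37 and 2.2 in M3 to 0 in both M4 libraries. The processed pseudogenes RPL13AP25, RPL13AP24, RPL7AP30 and FABP5P7 were among the 9; RPL13AP25 went from 27.7 and 30.4 CPM in M1 through 18.1 and 21.2 in M2 and 17.5 and 12.3 in M3 to 6.6 and 6.91 in M4, and such copies can share reads with their parent genes. The rest of the 9 were ENSG00000253882, ENSG00000260581 and ENSG00000267469. ENSG00000077809 went from 447 and 415 CPM in M1 through 322 and 322 in M2 and 221 and 253.5 in M3 to 177 and 177 in M4.

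Several members (ZBTB16, KLF9, CEBPD) are known to respond to glucocorticoids, and hydrocortisone was in every medium. Other such genes were looked at after the values were seen. FKBP5, a chaperone of the glucocorticoid receptor, went from 938 and 445 CPM in M1 through 620.3 and 625 in M2 and 351 and 293 in M3 to 136 and 190.4 in M4, and SGK1, a kinase that activates the epithelial sodium channel, went from 87.9 and 89.2 CPM in M1 through 74.4 and 69.8 in M2 and 47 and 43.6 in M3 to 29.1 and 15.3 in M4. Both had lower line means at each step and missed the rule at the first step, with ratios of 1.11 and 1.23. TSC22D3 (GILZ) went from 201 and 51 CPM in M1 through 69.3 and 67.3 in M2 and 149 and 36.2 in M3 to 11.7 and 7.35 in M4, DUSP1 went from 205 and 37.5 CPM in M1 through 74.7 and 77 in M2 and 59 and 33.5 in M3 to 86.7 and 82.5 in M4 and PER1 went from 126 and 77 CPM in M1 through 129.9 and 129.6 in M2 and 62 and 83.7 in M3 to 70.9 and 63.7 in M4, and none of these had lower line means at every step. GLUL, another such gene, had 1099 and 270 CPM in M1 and 140 and 142 in M2. Its levels were 492 and 178 in M3 and 140 and 88.75 in M4, with a higher mean in M3 than in M2. The receptor gene NR3C1 went from 90 and 50.5 CPM in M1 through 66.9 and 64.3 in M2 and 73.1 and 88 in M3 to 76.6 and 106 in M4. The part of hydrocortisone in these levels was not tested.

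FABP4, a fatty acid-binding protein that partners with CD36 in adipocytes and endothelium, went from 97.3 and 4.21 CPM in M1 through 0.421 and 0.402 in M2 and 0.0114 and 0.0116 in M3 to 0.0652 and 0.0789 in M4. It missed the rule because M4 was above M3 by a few counts. Like FABP4, PPARG, BCAT1, BCAT2 and AASS were looked at after the values were seen, and none of them was a member. The other subunits of the epithelial sodium channel missed the rule. SCNN1A went from 320.2 and 142 CPM in M1 through 174 and 166 in M2 and 118 and 92.9 in M3 to 153 and 129.7 in M4, and SCNN1G went from 108 and 15.3 CPM in M1 through 47.7 and 50.7 in M2 and 54.8 and 32.5 in M3 to 5.43 and 6.85 in M4. The line means of SCNN1G were lower at each step, with ratios of 1.25 and 1.13 at the first and middle steps, and that of SCNN1A was higher in M4 than in M3.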
